A study of Mus musculus with 12 samples.

Results

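The 35 genes described here encode proteins of the adult skeletal muscle fiber and were taken by symbol from the 49315 gene rows of the count files, and all 35 were found. They are followed through 12 subcutaneous TRAMP-C2 tumors, 3 in each of 4 groups. TRAMP-C2 cells derive from a mouse prostate tumor and were grown here under the skin of the right flank of male C57BL/6J mice aged 6 to 8 weeks, so every group shares the host strain and the cell line. Tumors of about 200 mm3 were injected with 3 doses of 50 µl HBSS, the vehicle (tumors 19, 22R and 22LL), with 2 doses of 10 µg cyto-IL-15, a membrane-anchoring form of interleukin-15 (tumors 9R, 13 and 20LL), with 3 doses of 50 µg ADU-S100, an agonist of STING (tumors 17LL, 18R and 22LR), or with both agents at these doses (combination tumors 20L, 22 and 28LL). They were removed on day 6, and values below are always given in the tumor order of this list. The labels call the samples separate tumors, do not say whether each came from its own mouse, and name no batch, so the p-values measure the spread between these tumors. The sources used here do not say how much tissue around each tumor was taken with it.

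Total counts ran from 48772204 to 103700199 per tumor. The libraries of tumors 13 and 28LL stood apart from the rest: across 40986 genes their log2 levels had correlations of 0.946 to 0.978 with any other tumor, and pairs among the remaining 10 tumors had correlations of 0.984 to 0.997. The prostate label was checked against markers, and the secretory prostate gene Pbsn was at or under 0.0163 CPM (counts scaled to a library total of 1e+06) in every tumor.

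A skeletal muscle fiber is a long cell made by the fusion of precursors and filled with sarcomeres, in which myosin thick filaments pull on actin thin filaments when calcium leaves the sarcoplasmic reticulum and binds troponin. Fast fibers (types IIa, IIx and IIb) and slow fibers (type I) build the same machine from different members of the myosin, troponin, actinin and calcium pump families, so the ratio of such paralogs is a guide to the kind of fiber. Muscles that lie under mouse skin, such as those of the body wall and the thin panniculus carnosus, are made mainly of fast fibers. In bulk RNA, fewer muscle cells in a sample and less muscle RNA per cell cannot be told apart.

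The stretches upstream of 3 members are shown because these genes recur in the results that follow: Acta1, the actin of the thin filament, Ckm, the creatine kinase of muscle, and Myh4, the myosin heavy chain of type IIb fibers. Each is the 250 bases before the RefSeq gene start (build GRCm38.p6), at chr8:123894776-123895025 on the minus strand, chr7:19410844-19411093 on the plus strand and chr11:67237562-67237811 on the plus strand. Capitals mark letters that match CAGCTG or CACCTG (2 forms of the E-box, which the myogenic MyoD family can bind), TATAAA, a CArG box (the motif of serum response factor) or a MEF2 site, searched on both strands.
Acta1: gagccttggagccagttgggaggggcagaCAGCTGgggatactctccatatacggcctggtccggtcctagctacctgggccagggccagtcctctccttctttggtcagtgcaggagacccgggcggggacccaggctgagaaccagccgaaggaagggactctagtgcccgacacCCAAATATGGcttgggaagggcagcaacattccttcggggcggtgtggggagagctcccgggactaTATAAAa
Ckm: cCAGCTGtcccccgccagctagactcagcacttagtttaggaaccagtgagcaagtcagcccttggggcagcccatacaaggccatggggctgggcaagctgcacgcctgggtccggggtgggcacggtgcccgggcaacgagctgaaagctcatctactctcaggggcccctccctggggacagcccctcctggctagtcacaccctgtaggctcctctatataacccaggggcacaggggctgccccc
Myh4: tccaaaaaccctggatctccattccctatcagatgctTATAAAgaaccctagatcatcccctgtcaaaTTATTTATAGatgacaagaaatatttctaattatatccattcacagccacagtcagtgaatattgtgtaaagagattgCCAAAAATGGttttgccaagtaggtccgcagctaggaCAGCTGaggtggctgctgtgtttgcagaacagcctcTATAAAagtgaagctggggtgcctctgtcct
The Acta1 stretch held CAGCTG, a CArG box and TATAAA, that of Ckm held CAGCTG alone, and that of Myh4 held all of these plus a MEF2 site that overlaps a TATAAA match on the other strand. RefSeq windows, from 250 bases before to 50 after the start, were at hand for 24 of the 35 members, in 29 windows. CAGCTG was present in 15 of these 29 windows (51.7%) and in 16.3% of all 32851 windows, a MEF2 site in 5 (17.2%) and 3.19%, a CArG box in 2 (6.90%) and 1.63%, and TATAAA in 6 (20.7%) and 13.6%. CACCTG was in 8 (27.6%) of the windows of members and 20.2% of all windows, and the general E-box CANNTG, of which both forms above are cases, in 25 (86.2%) and 72.3%. A match is a description of the letters and not a bound site. No window was at hand for Myot, Tcap, Ampd1, Actn3, Myoz1, Tnni2, Cox6a2, Cacng1, Mylk2, Neb and Tnnt3.

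Transcripts of muscle fibers were close to absent in the HBSS tumors and present, at levels that differed widely from tumor to tumor, in 8 of the 9 treated tumors. The summed level of the 35 genes was 68.7, 95.1 and 104 CPM in the HBSS tumors. It was 1676, 324 and 612 CPM in the cyto-IL-15 tumors, 3332, 915 and 324 CPM in the ADU-S100 tumors and 174, 1489 and 7479 CPM in the combination tumors. The treated tumors did not overlap with the HBSS tumors in this sum, but their order did not follow the treatment: tumor 28LL was highest, then 17LL, 9R and 22, which come from all 3 treated groups.

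**Figure D1:**
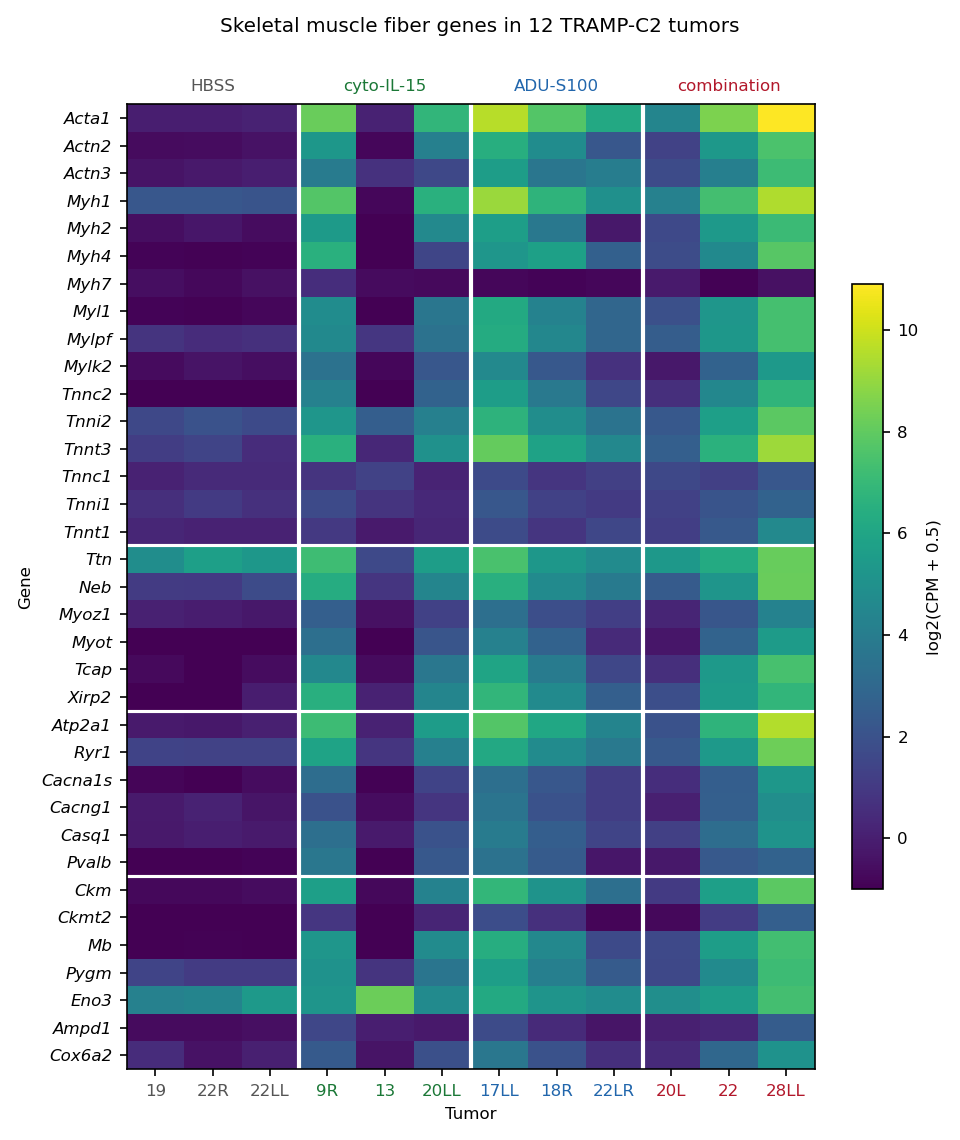
Level of each of the 35 genes (rows, ordered by role) in each of the 12 tumors (columns, by group), as log2(CPM + 0.5) with lighter colors for higher levels. The HBSS columns are lightest at Ttn and Eno3 and that of tumor 13 at Eno3, and the column of tumor 28LL is the lightest, with Acta1 at 1913 CPM.

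Titin (Ttn) and enolase 3 (Eno3) made up 67.4, 75.6 and 78.1% of the sum in the HBSS tumors, and the 33 other genes together reached only 22.4, 23.2 and 22.7 CPM there, a mean of 22.8 ± 0.398 CPM (SD, n = 3). Over these 33 genes the cyto-IL-15 tumors held 1491, 20.0 and 538 CPM, the ADU-S100 tumors 3079.7, 841 and 271 CPM and the combination tumors 106, 1365 and 7035 CPM. Tumor 13, which was given cyto-IL-15, was then the lowest of all 12, because Eno3 alone supplied 93.0% of its sum over the 35 genes. The highest tumor of a group exceeded the lowest by 1.04-fold among HBSS tumors, 11.4-fold among ADU-S100 tumors, 66.5-fold among combination tumors and 74.5-fold among cyto-IL-15 tumors.

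**Figure D2:**
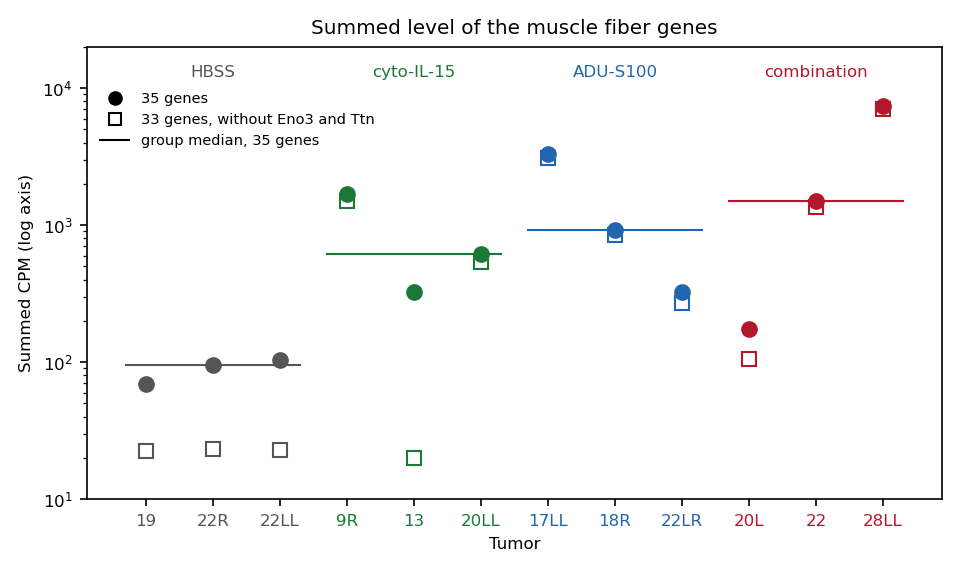
Summed CPM on a log axis in each of the 12 tumors, for all 35 genes (filled circles) and for the 33 genes without Eno3 and Ttn (open squares), with a line at the median of each group. The 3 HBSS squares lie between 22.4 and 23.2 CPM, that of tumor 13 at 20.0 CPM, and those of the other 8 treated tumors between 106 and 7035 CPM.

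The genes moved together across tumors. Of the 35, 31 were highest in tumor 28LL, Myh7 and Pvalb in tumor 9R, Eno3 in tumor 13 and Xirp2 in tumor 17LL. Within the cyto-IL-15 group all 35 were higher in tumor 9R than in tumor 20LL, within the combination group all 35 were higher in 28LL than in 22, and within the ADU-S100 group 34 were higher in 17LL than in 18R and 31 in 18R than in 22LR. In every HBSS tumor 25 members were under 1 CPM and 8 were at or above it, namely Myh1, Tnni1, Tnni2, Ryr1, Ttn, Neb, Pygm and Eno3, with Mylpf and Tnnt3 on both sides. Above every HBSS tumor stood 27 members in all 8 treated tumors other than 13, and 6 when tumor 13 is counted. The share of all genes that did so was not measured, and tumor 13 was set apart after its values were seen. Shares of all genes for each treatment alone are given below.

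The design asks how each agent, alone or with the other, altered gene expression in the tumor. Each treatment was compared with HBSS by edgeR's quasi-likelihood test over all genes that passed a filter on low counts, with Benjamini-Hochberg adjustment, and a gene counts as called where its adjusted p was below 0.05 and its log2 fold change exceeded 1 in either direction. All 3 comparisons use the same HBSS tumors, so their values are not independent of each other. After ADU-S100, 14 of the 33 members tested were called higher and none lower, with 2.75% of all 18911 genes tested called higher. These 14 were Acta1, Actn3, Myh4, Myl1, Tnnc2, Tnnt1, Myoz1, Myot, Atp2a1, Casq1, Ryr1, Cacna1s, Cacng1 and Ckm. The median log2 fold change of the 33 was 5.84, against 0.03 over all genes tested, and all 33 were positive. With Myh7 and Ckmt2 too low to be tested, 30 of the 33 were higher in every ADU-S100 tumor than in every HBSS tumor on TMM-scaled CPM, the scale of the test, as were 15.8% of all genes tested. On CPM of the library total, the scale of the levels given here, Tnni1 joins them and the count is 31.

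The count of 14 rested on the tumors in the fit, and each count is given with the share of all genes called higher in the same fit. It was 0 without HBSS tumor 19 (1.34%), 0 without HBSS tumor 22R (1.22%) and 2 without HBSS tumor 22LL (1.39%). It was 3 without ADU-S100 tumor 18R (1.9%), 22 without 17LL (2.58%) and 26 without 22LR (2.36%). A fit that shared its spread over all 12 tumors called 0 members (0%), and such a fit without tumors 13 and 28LL called 7 (2.05%). With no filter on low counts it was 6 (1.84%), and the Wald test of DESeq2, which the methods of the study name, called 32 (3.85%).

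After the combination no member of the 34 tested was called by edgeR (smallest adjusted p = 0.185), although the median log2 fold change was 6.33, all 34 were positive and 32 had an unadjusted p under 0.05. Of all 18565 genes tested, 3374 had such an unadjusted p, and 0% were called higher. DESeq2 called 32 members and 4.39% of all genes higher. Higher in every combination tumor than in every HBSS tumor were 29 members on either scale, beside 13.9% of all genes tested. Without tumor 28LL, 2 members and 0.968% of all genes were called, and without 13 and 28LL in a fit of 10 tumors, 1 member and 1.21% of all genes were.

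After cyto-IL-15, again no member of the 28 tested was called (smallest adjusted p = 0.898), with 0% of all 18594 genes called higher. The median log2 fold change of the 28 was 3.54, and all were positive. An unadjusted p under 0.05 held for 20 of them and for 706 of the 18594 genes. DESeq2 called 17 members, with 0.474% of all genes. On TMM-scaled CPM 7 members were higher in every cyto-IL-15 tumor than in every HBSS tumor, beside 4.38% of all genes tested, and on CPM of the library total 6 were, without Acta1. Tumor 13 decided both counts: without it 20 members and 0.907% of all genes were called higher, and 23 of the 28 members and 13.1% of all genes were above every HBSS tumor.

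**Figure D3:**
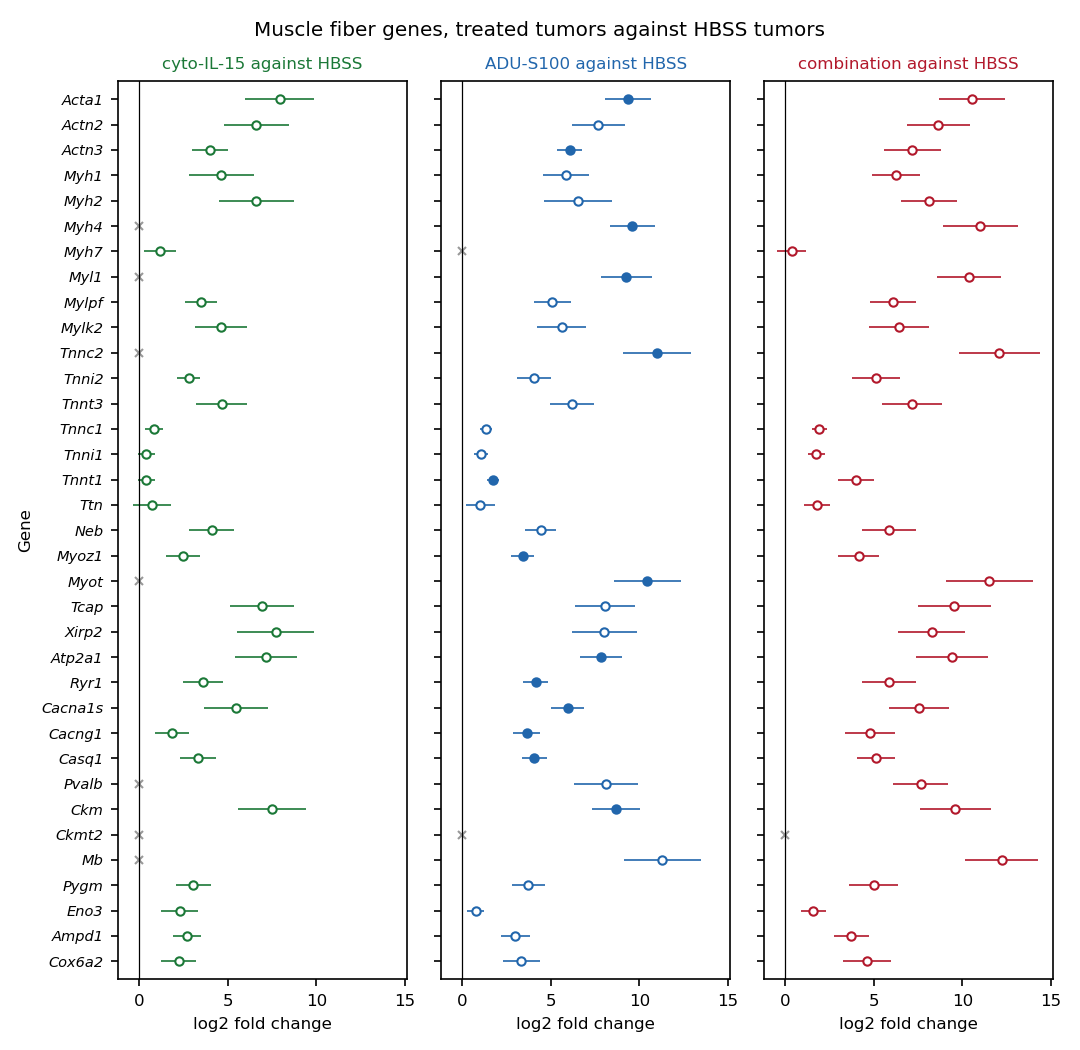
Fitted log2 fold change of each member against HBSS (points) with its standard error (bars), in separate panels for cyto-IL-15, ADU-S100 and the combination. Filled points are called (14 after ADU-S100, none in the other panels), and gray crosses at 0 mark members that did not pass the filter on low counts, which have no value.

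Among the filament proteins, Acta1, the skeletal alpha-actin of the thin filament (ENSMUSG00000031972, chr8:123891769-123894751 in GRCm38), was measured at 0.506, 0.501 and 0.593 CPM in the HBSS tumors. It reached 291, 0.589 and 115 CPM after cyto-IL-15, 793, 213 and 73.0 CPM after ADU-S100 and 21.2, 377 and 1913 CPM after the combination. Tumor 13 lay within the HBSS range and every other treated tumor was above it by more than an order of magnitude. The log2 fold change of Acta1 was 9.38 ± 1.30 (SE, adjusted p = 0.0265) after ADU-S100, 10.52 ± 1.87 (SE, adjusted p = 0.185) after the combination and 7.94 ± 1.94 (SE, adjusted p = 0.898) after cyto-IL-15, so it passed the test after ADU-S100 alone, which does not show that the treatments differed.

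The alpha-actinins hold actin filaments in the Z-disc, Actn3 in fast fibers only and Actn2 in all fibers. Actn3 was at 0.261, 0.369 and 0.503 CPM in the HBSS tumors, 15.01, 1.12 and 2.49 CPM after cyto-IL-15, 49.4, 12.4 and 16.3 CPM after ADU-S100 and 2.78, 17.1 and 142 CPM after the combination. The treated tumors were all above the HBSS tumors, tumor 13 included, and the log2 fold change after ADU-S100 was 6.07 ± 0.71 (SE, adjusted p = 0.0104), the smallest p among the members. Tumor 22LR was unlike its group, since its Actn3 level exceeded that of 18R although 31 of the 35 genes were lower in it. Actn2 was at or under 0.257 CPM in the HBSS tumors and tumor 13, 4.17 CPM in 22LR, 27.3 CPM in 18R and 183 CPM in 28LL.

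The genes of the adult fast myosin heavy chains, the motors of the thick filament, lie side by side on the plus strand of chr11 (GRCm38), with Myh2 (type IIa) at chr11:67171027-67197517, Myh1 (type IIx) at chr11:67200052-67224575 and Myh4 (type IIb) at chr11:67238029-67260446. Myh1 had the most counts of them in every tumor. It was at 4.13, 4.13 and 3.73 CPM in the HBSS tumors, 213, 0.0736 and 94.0 CPM after cyto-IL-15, 555, 105 and 31.3 CPM after ADU-S100 and 18.1, 162 and 717 CPM after the combination. The HBSS tumors were thus not devoid of Myh1, and tumor 13, with 5 counts, was below all of them.

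Myh4 was at or under 0.0490 CPM in the HBSS tumors, which is 2 to 4 counts each. Its levels were 94.0, 0 and 2.29 CPM after cyto-IL-15, 37.6, 53.5 and 5.83 CPM after ADU-S100 and 2.86, 24.2 and 224 CPM after the combination. Every treated tumor other than 13 was above the HBSS tumors. The log2 fold change of Myh4 was 9.61 ± 1.28 (SE, adjusted p = 0.0210) after ADU-S100 and 11.01 ± 2.11 (SE, adjusted p = 0.185) after the combination, and it did not pass the filter on low counts after cyto-IL-15, where only 9R and 20LL had more than 4 counts of it. Fitted values of genes with so few HBSS counts depend on the prior count of the fit. Myh2 was at 0.180, 0.330 and 0.157 CPM in the HBSS tumors, 44.0, 0 and 23.8 CPM after cyto-IL-15, 49.9, 13.0 and 0.356 CPM after ADU-S100 and 2.62, 41.2 and 137 CPM after the combination, so tumor 22LR was next to the HBSS level in Myh2 while its Myh1 was not.

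Myh7 encodes the myosin heavy chain of slow fibers and of the heart ventricle. It stayed at 0.180, 0.0923 and 0.235 CPM in the HBSS tumors, 0.964, 0.132 and 0.114 CPM after cyto-IL-15, 0.0863, 0.0482 and 0.0779 CPM after ADU-S100 and 0.393, 0.0291 and 0.233 CPM after the combination. The 3 ADU-S100 tumors, at 5 to 7 counts each, were below every HBSS tumor and too low to be tested, and the other groups overlapped with HBSS. The log2 fold change was 1.19 ± 0.90 (SE, adjusted p = 0.898) after cyto-IL-15 and 0.37 ± 0.82 (SE, adjusted p = 0.812) after the combination.

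As a share of the counts of these 4 myosin genes, whose transcripts have similar lengths, Myh1 supplied 60.5, 35.7 and 78.2% in the cyto-IL-15 tumors, 86.4, 61.2 and 83.3% in the ADU-S100 tumors and 75.6, 71.2 and 66.5% in the combination tumors. The type IIb share, that of Myh4, was 26.7% in tumor 9R and 31.2% in 18R but 1.91% in 20LL and 5.86% in 17LL, so it varied widely within a group. The type IIa share, that of Myh2, ranged in the treated tumors other than 13 from 0.949% in 22LR to 19.8% in 20LL. Wilson 95% intervals of these shares were within 2.11 percentage points of the value in the 8 tumors with over 1000 counts of the 4 genes, and cover counting error only. In tumor 13 the 4 genes had 14 counts in all, 9 of them of Myh7, which gives an interval of 38.8% to 83.7% for its share.

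**Figure D4:**
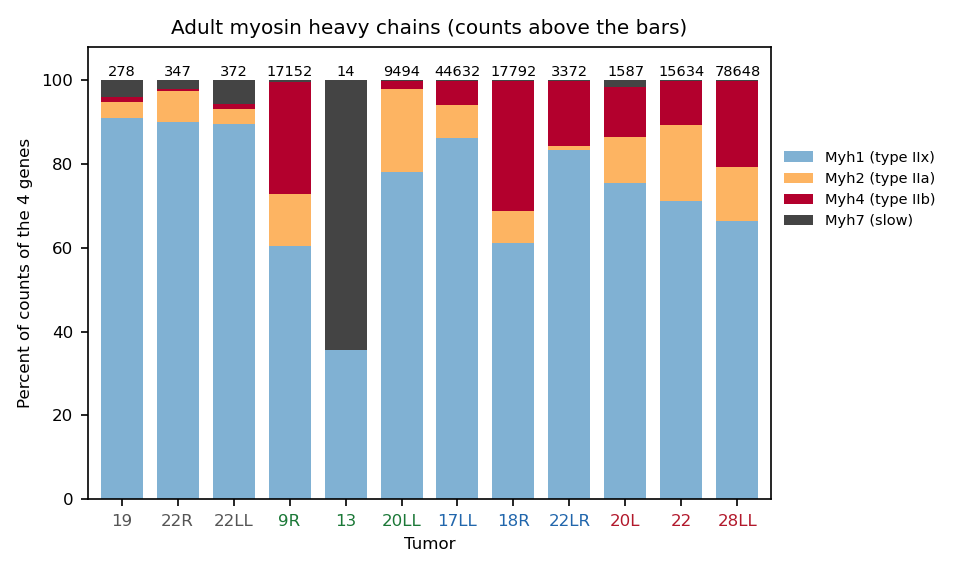
Share (percent) of Myh1, Myh2, Myh4 and Myh7 in their summed counts in each tumor, with the number of counts above each bar. Myh1 is the largest share everywhere except in tumor 13, which has 14 counts, and the Myh4 share is largest in 9R (26.7%) and 18R (31.2%).

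Of the myosin light chains, which sit on the neck of the heavy chain, Myl1 was nearly absent from the HBSS tumors (0.0490, 0.0264 and 0.0783 CPM) and tumor 13 (0) and reached 170.1 CPM in 28LL. Its log2 fold change after ADU-S100, with 75.3, 18.6 and 7.06 CPM in those tumors, was 9.27 ± 1.43 (SE, adjusted p = 0.0320). Mylpf, the regulatory light chain of fast fibers, was at 1.21, 0.910 and 1.07 CPM in the HBSS tumors, 1.37 CPM in tumor 13 and 5.25 to 166 CPM in the other treated tumors. Mylk2, the kinase that phosphorylates this light chain, ran from 0.131 to 0.277 CPM in the HBSS tumors and up to 42.7 CPM in 28LL.

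Troponin senses calcium on the thin filament, and each of its 3 subunits has a fast and a slow form. The fast tropomyosin-binding subunit Tnnt3 was at 1.71, 2.18 and 0.940 CPM in the HBSS tumors, 93.0, 0.736 and 31.5 CPM after cyto-IL-15, 272, 58.1 and 22.9 CPM after ADU-S100 and 5.61, 97.4 and 572 CPM after the combination. All treated tumors other than 13 were above the HBSS tumors, but edgeR on all 6 tumors of each comparison did not call it: the log2 fold change was 6.19 ± 1.23 (SE, adjusted p = 0.0582) after ADU-S100, 7.16 ± 1.70 (SE, adjusted p = 0.185) after the combination and 4.65 ± 1.45 (SE, adjusted p = 0.898) after cyto-IL-15. After ADU-S100, Tnnt3 stayed uncalled in 10 of 12 alternatives and was called in the rest. The fast calcium-binding subunit Tnnc2 had 0, 1 and 1 counts in the HBSS tumors, none in tumor 13, and 48.2, 13.6 and 2.43 CPM after ADU-S100. Its fitted log2 fold change there was 11.01 ± 1.91 (SE, adjusted p = 0.0419), which depends on the prior count at so few HBSS counts, and the ratio of summed counts per library total was 2144 (95% interval 593 to 17709). This interval and those like it for other genes cover counting error only and leave out the spread between tumors. The fast inhibitory subunit Tnni2 was 2.48, 3.51 and 2.67 CPM in the HBSS tumors and 5.39 CPM in tumor 13, and 4.28 to 237 CPM in the other treated tumors.

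The slow subunits were low in every group. Tnnt1 was at 0.702, 0.606 and 0.593 CPM in the HBSS tumors, 1.46, 0.397 and 0.696 CPM after cyto-IL-15, 2.78, 1.28 and 2.38 CPM after ADU-S100 and 1.80, 4.47 and 23.8 CPM after the combination. The ADU-S100 and combination tumors were all above the HBSS tumors, and 28LL was far above the rest. It was called after ADU-S100, with a log2 fold change of 1.75 ± 0.33 (SE, adjusted p = 0.0216), and not after the combination (4.01 ± 1.01, SE, adjusted p = 0.191) or cyto-IL-15 (0.41 ± 0.47, SE, adjusted p = 0.902). Tnnc1 ranged from 0.588 to 0.857 CPM in the HBSS tumors and from 0.633 to 4.24 CPM in the treated ones, and Tnni1 from 1.03 to 1.52 CPM and from 0.797 to 6.13 CPM, so both overlapped between HBSS and cyto-IL-15 tumors.

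Per kilobase of transcript, the 12 fast fiber genes (Myh1, Myh2, Myh4, Mylpf, Tnnc2, Tnni2, Tnnt3, Actn3, Atp2a1, Casq1, Pvalb and Myoz1) summed to 5.398, 6.14 and 4.87 CPM per kb in the HBSS tumors and the 4 slow fiber genes (Myh7, Tnnc1, Tnni1 and Tnnt1) to 1.19, 1.53 and 1.39. The log2 ratio of fast to slow sums, after adding 0.5 to each, was 1.80, 1.71 and 1.51 in the HBSS tumors, 6.31, 1.17 and 5.77 in the cyto-IL-15 tumors, 6.73, 5.75 and 3.78 in the ADU-S100 tumors and 2.27, 5.498 and 6.23 in the combination tumors. Tumor 13 was below the HBSS range and the other 8 treated tumors were above it. Fast genes exceeded slow genes in all 12 tumors. Of these 8, tumor 20L, the combination tumor with the lowest sum of the 35 genes, was closest to the HBSS tumors, and 22LR was next.

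Within each of the 4 pairs of paralogs, too, the 8 treated tumors other than 13 were above the HBSS range, while tumor 13 went either way. Its log2 ratio of fast to slow was 2.29 for Tnni2 over Tnni1, above the HBSS tumors at 1.46, 1.63 and 1.52, and -0.011 for the summed fast myosins over Myh7, below the HBSS tumors at 1.18, 1.23 and 1.08. For Tnnt3 over Tnnt1 the log2 ratio ran from 0.51 to 1.27 in the HBSS tumors and from 1.62 in 20L to 6.61 in 17LL in the treated tumors other than 13. For Tnnc2 over Tnnc1 it was -1.09, -1.36 and -1.33 in the HBSS tumors, 3.81, -2.32 and 2.89 after cyto-IL-15, 4.32, 3.33 and 0.63 after ADU-S100 and -0.66, 3.63 and 4.92 after the combination, so the slow form was the higher in the HBSS tumors, 13 and 20L. Tnnc1 overlaps Nisch on the opposite strand, which was at 239 to 650 CPM, and with the strand setting of the counting not given in the sources used here, reads of the overlap cannot be told apart.

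**Figure D5:**
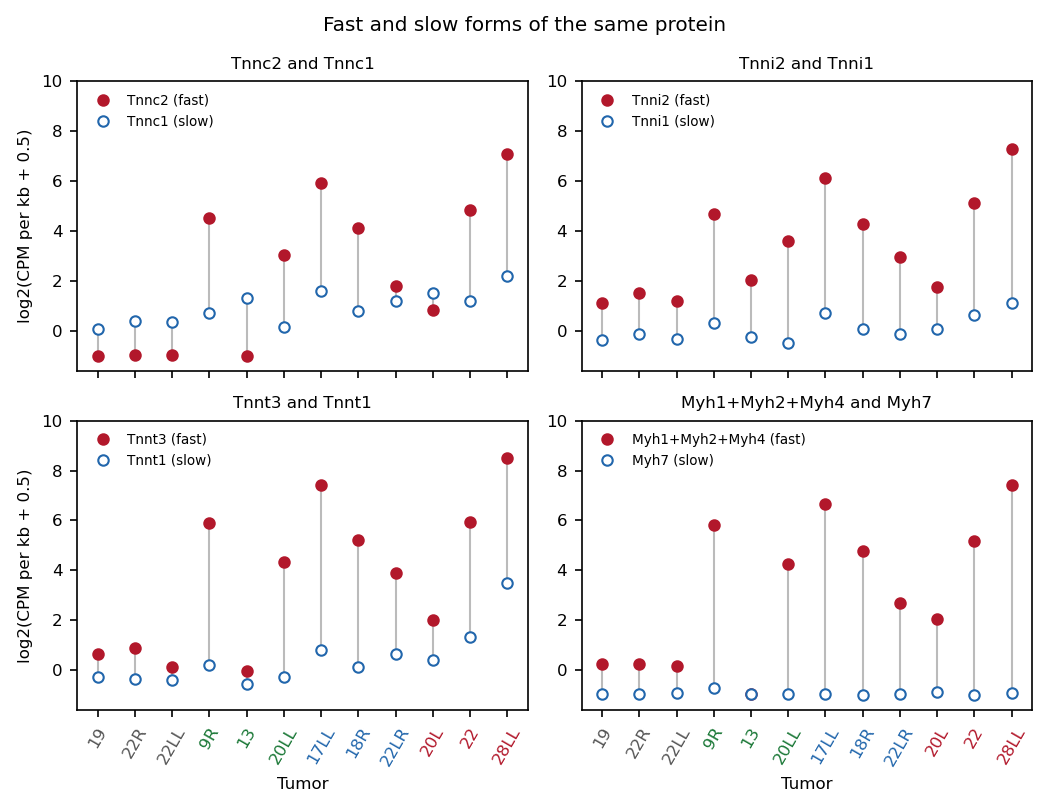
Level per length, as log2(CPM per kb + 0.5), of the fast (filled) and the slow (open) form of troponin C, troponin I, troponin T and the myosin heavy chain in each of the 12 tumors. The fast form is highest in tumor 28LL in every panel, and the slow forms stay low, with the exception of Tnnt1 in tumor 28LL at 10.8 CPM per kb.

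Titin, the giant spring that spans the sarcomere from Z-disc to M-line, was already measurable in every HBSS tumor. Its gene Ttn was at 27.9, 51.5 and 38.8 CPM in the HBSS tumors, 149, 2.55 and 48.9 CPM after cyto-IL-15, 177, 38.5 and 25.9 CPM after ADU-S100 and 39.6, 77.1 and 281 CPM after the combination. The groups overlapped, and tumor 13 was below every other tumor. Nebulin (Neb), a very large protein that runs along the thin filament, was at 1.57, 1.56 and 2.77 CPM in the HBSS tumors and at 4.80, 36.4 and 289 CPM in the combination tumors. Per length, Ttn exceeded Neb 4.06, 7.53 and 3.18-fold in the HBSS tumors, whereas the ratio was 1.88 in 20L and 0.222 to 0.527 in the other treated tumors.

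A like shift held for Acta1 over Myh1 per length, which was 0.507, 0.502 and 0.658 in the HBSS tumors, 5.66 and 5.07 in tumors 9R and 20LL, 5.92, 8.40 and 9.66 after ADU-S100 and 4.82, 9.64 and 11.0 after the combination. Relative to Acta1 and Neb, the HBSS tumors thus held more Myh1 and Ttn than the treated tumors did. In tumor 13 the ratio was 33.1, on 5 counts of Myh1.

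The other Z-disc genes were near 0 in the HBSS tumors. Myot, the gene of myotilin, had 1 count over the 3 HBSS tumors and none in tumor 13, but 18.1, 6.15 and 0.824 CPM after ADU-S100. Its fitted log2 fold change was 10.45 ± 1.88 (SE, adjusted p = 0.0391), with a ratio of summed counts per library total of 1698 (95% interval 304 to 67103), again for counting error only. Myoz1, the calcineurin-binding Z-disc protein of fast fibers, was at 0.555, 0.461 and 0.347 CPM in the HBSS tumors and 9.74, 3.10 and 1.85 CPM after ADU-S100, a log2 fold change of 3.42 ± 0.65 (SE, adjusted p = 0.0290). Tcap, which caps titin in the Z-disc, was at or under 0.157 CPM in the HBSS tumors and from 1.04 CPM in 20L to 171 CPM in 28LL in treated tumors other than 13. Xirp2, an actin-binding protein of the sites where fibers attach and are repaired, was at 0, 0.0132 and 0.481 CPM in the HBSS tumors, 0.589 CPM in tumor 13, 90.9 CPM in 9R, 115 CPM in 17LL and 112 CPM in 28LL, so that 17LL and not 28LL was highest.

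The calcium handling genes of the sarcoplasmic reticulum and of the triad, where the cell membrane meets this reticulum, supplied 5 of the 14 calls. Atp2a1, the calcium pump of fast fibers, was at 0.408, 0.343 and 0.526 CPM in the HBSS tumors, 140.3, 0.589 and 47.3 CPM after cyto-IL-15, 209, 68.1 and 20.0 CPM after ADU-S100 and 3.56, 105 and 746 CPM after the combination. All treated tumors were above the HBSS tumors, 13 by the least, and the log2 fold change after ADU-S100 was 7.84 ± 1.20 (SE, adjusted p = 0.0328). Ryr1, the calcium release channel, was at 2.15, 2.07 and 2.07 CPM in the HBSS tumors and 72.7, 26.6 and 13.5 CPM after ADU-S100, a log2 fold change of 4.15 ± 0.70 (SE, adjusted p = 0.0335).

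Cacna1s, the voltage sensor that opens the release channel, went from 0.0653, 0.0132 and 0.157 CPM in the HBSS tumors to 9.67, 4.16 and 1.71 CPM after ADU-S100, with a log2 fold change of 5.96 ± 0.94 (SE, adjusted p = 0.0194). Its partner subunit Cacng1 was at 0.408, 0.606 and 0.302 CPM and 11.6, 3.44 and 1.73 CPM in these groups, a log2 fold change of 3.65 ± 0.77 (SE, adjusted p = 0.0433). Casq1, which stores calcium in the reticulum of fast fibers, was at 0.392, 0.514 and 0.414 CPM and 14.8, 5.46 and 2.21 CPM, a log2 fold change of 4.07 ± 0.72 (SE, adjusted p = 0.0263). In each of these genes the lowest ADU-S100 tumor was 22LR, and it was still above the highest HBSS tumor. Pvalb, the calcium buffer parvalbumin that is most abundant in type IIb fibers, had 4 counts in the HBSS group, all in tumor 22LL, and its order among tumors was its own, with 12.8 CPM in 9R and 10.6 CPM in 17LL above 6.16 CPM in 28LL.

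The genes of energy supply differed in how much of their RNA the HBSS tumors held. Ckm, the creatine kinase that regenerates ATP beside the myofibrils (ENSMUSG00000030399, chr7:19404776-19422841), was at 0.0979, 0.105 and 0.168 CPM in the HBSS tumors, 51.9, 0.103 and 19.0 CPM after cyto-IL-15, 116, 33.9 and 9.63 CPM after ADU-S100 and 1.54, 51.5 and 239.7 CPM after the combination. All treated tumors other than 13 were above the HBSS tumors. The log2 fold change of Ckm was 8.69 ± 1.37 (SE, adjusted p = 0.0354) after ADU-S100, 9.61 ± 1.99 (SE, adjusted p = 0.185) after the combination and 7.50 ± 1.92 (SE, adjusted p = 0.898) after cyto-IL-15. Its mitochondrial counterpart Ckmt2 had 2 counts in the HBSS group and at most 5.65 CPM, in 28LL.

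Mb, the oxygen store myoglobin, had 3 counts in the HBSS group and 38.1, 0.0147 and 26.1 CPM after cyto-IL-15, 85.5, 22.8 and 2.68 CPM after ADU-S100 and 2.56, 48.4 and 156 CPM after the combination. The ratio of summed counts per library total against HBSS was 2454 (95% interval 839 to 11899.6) after ADU-S100, for counting error only. The edgeR test, which also takes in the spread between tumors, did not call it (adjusted p = 0.0539). Pygm, which breaks down glycogen in muscle, was at 2.22, 1.61 and 1.59 CPM in the HBSS tumors and 2.45, 25.6 and 141 CPM in the combination tumors. Cox6a2, a muscle subunit of cytochrome c oxidase, and Ampd1, the AMP deaminase of muscle, were lower, at most 0.947 and 0.201 CPM in HBSS tumors and 32.7 and 4.99 CPM in 28LL.

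Eno3, the muscle form of the glycolytic enzyme enolase, did not follow the other members. It was at 18.4, 20.4 and 42.4 CPM in the HBSS tumors, 35.9, 301 and 25.3 CPM after cyto-IL-15, 74.7, 35.8 and 27.2 CPM after ADU-S100 and 29.0, 47.3 and 163 CPM after the combination. The groups overlapped, and its highest level was in tumor 13, the tumor in which 14 of the 35 members were below every HBSS tumor.

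Between treatments no member was called by edgeR. ADU-S100 against cyto-IL-15 gave 0 of 34 with 0.0855% of all 18708 genes called higher and a median log2 fold change of 0.92. An unadjusted p under 0.05 held for 1 member and for 1468 of all genes tested. DESeq2 called 0 members and 1.05% of all genes higher. The combination against cyto-IL-15 gave 0 of 35 (0% of all genes called higher) with a median of 1.95. Such an unadjusted p held there for 1 member and for 926 of all 18619 genes tested. DESeq2 called 1 member and 0.52% of all genes higher. The combination against ADU-S100 gave 0 of 34 (0% of all genes called higher) with a median of 1.06. Here 1 member and 802 of all 18689 genes tested had such an unadjusted p, and DESeq2 called 0 members and 0% of all genes higher. In these 3 comparisons the log2 fold change of Acta1 was 1.42 ± 1.59, 2.59 ± 1.97 and 1.14 ± 1.43, and that of Myh4 was 0.06 ± 1.92, 1.48 ± 2.296 and 1.40 ± 1.43 (SE). That of Ckm was 1.19 ± 1.54, 2.13 ± 1.96 and 0.91 ± 1.497, and that of Tnnt3 was 1.51 ± 1.43, 2.52 ± 1.83 and 0.98 ± 1.48. The standard errors were larger than most of these differences, so the spread between tumors of a group would hide differences of several fold. Several turned negative without tumors 13 and 28LL in a fit of 10 tumors: Acta1 was then at -0.82 in the combination against ADU-S100, and Myh4 at -0.52, -1.76 and -1.24 in the same order of comparisons. Tnnt1 came closest to the threshold by unadjusted p, at 1.32 ± 0.53, 3.61 ± 1.09 and 2.26 ± 0.94 with adjusted p of 0.615, 0.785 and 0.884, and Myh7 could be tested against cyto-IL-15 in the combination alone (-0.82 ± 1.11).

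The interaction, which asks whether the effect of cyto-IL-15 was the same with and without ADU-S100, was fitted on all 12 tumors. It called none of the 35 members by edgeR (0% of all 20132 genes called higher) and 0 by DESeq2. An unadjusted p under 0.05 held for 11 members and for 461 of all genes tested. Its median over the members was -3.67, against -0.04 over all genes tested, and 31 of 35 were negative. That is, the combination lay below the sum of both single effects on the log2 scale for these members. Terms of genes with few HBSS counts, such as Myh4, depend on the prior count of the fit. The interaction term of Acta1 was -6.80 ± 2.44, that of Myh4 -8.13 ± 3.23, that of Ckm -6.58 ± 2.56, that of Tnnt3 -3.67 ± 2.17, that of Tnnt1 1.84 ± 1.11 and that of Myh7 0.44 ± 1.27 (SE, with an adjusted p of 1.00 for each).

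Other genes of the contractile apparatus and the triad were described by a list of 49, all found in the files. After ADU-S100, 19 of the 47 tested were called higher and none lower, beside 2.75% of all genes called higher, with a median log2 fold change of 4.30, and no gene of the list was called after cyto-IL-15 (38 tested) or the combination (45 tested). The smallest p values after ADU-S100 belonged to Myf6, a myogenic factor of mature fibers with at most 0.0224 CPM in the HBSS tumors (7.33 ± 0.91, SE, adjusted p = 0.00494), Trim63, a ubiquitin ligase of muscle atrophy (5.94 ± 0.76, SE, adjusted p = 0.00827), its relative Trim55 (4.50 ± 0.68, SE, adjusted p = 0.00895) and Klhl40, which stabilizes thin filament proteins (4.92 ± 0.67, SE, adjusted p = 0.00969).

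A list of 8 genes of muscle precursors and regenerating fibers summed to 0.114 to 0.280 CPM in the HBSS tumors, 0.309 to 6.99 CPM after cyto-IL-15, 2.23 to 9.44 CPM after ADU-S100 and 4.83 to 35.2 CPM after the combination, and 4 of the 5 tested were called higher after ADU-S100, namely Myog, Mymk, Myod1 and Myh8, with 2.75% of all genes called higher. The order of tumors differed from that of the members: 20L, at 4.83 CPM, was above 18R and 20LL, at 2.23 and 0.899 CPM, although its members summed to less. Myog, the factor of myoblast differentiation, was at 3.58, 0.887 and 1.64 CPM in the ADU-S100 tumors and at most 0.0224 CPM in the HBSS tumors. Embryonic and neonatal myosin (Myh3 and Myh8) made up 0.291% to 1.82% of the counts of 6 myosin heavy chain genes in the treated tumors other than 13 and 20L, and 9.98% in 20L, so adult forms prevailed.

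Markers of other tissues near a flank tumor were measured beside these results. The 8 cardiac genes summed to 3.95 to 4.95 CPM in the HBSS tumors, 3.71 to 16.3 CPM after cyto-IL-15, 6.34 to 13.5 CPM after ADU-S100 and 12.03 to 26.6 CPM after the combination. Of these genes, Nppa and Myl7 were at or under 0.132 CPM in every tumor. Tnni3 ran from 0.690 CPM in 22LR to 3.88 CPM in 28LL, and Tnnt2 from 1.44 CPM in 20LL to 19.4 CPM in 22. Actc1 reached 4.46 CPM in 28LL, Nppb 3.68 CPM in 13, Myh6 0.943 CPM in 9R and Ryr2 0.363 CPM in 20L. Of the 3 cardiac genes tested after ADU-S100 only Tnnt2, which developing skeletal muscle also expresses, was called (1.505 ± 0.33, SE, adjusted p = 0.0342). The summed level of 7 smooth muscle genes was 171 to 212 CPM in the HBSS tumors, 159 to 212 CPM after cyto-IL-15, 197 to 267 CPM after ADU-S100 and 176 to 324 CPM after the combination, with none of the 7 called. Among them Synpo2, which is also a Z-disc protein of skeletal muscle, was at 3.97, 3.53 and 2.74 CPM in the HBSS tumors and 96.1 CPM in 28LL. The summed level of 7 skin keratin and cornification genes did not follow the muscle genes. This sum was highest in HBSS tumor 22LL, at 132 CPM, followed by 63.5 CPM in 17LL and 53.5 CPM in 13. It was 6.94 CPM at most in the combination tumors. Krt14 alone supplied 128 CPM of it in 22LL and 45.9 CPM in 13. Krt5 and Krt15 had another order, with 22.7 and 14.95 CPM in 17LL and 4.29 and 4.04 CPM in 9R. Both were at or under 0.370 CPM in every other tumor, 28LL included. The 6 adipocyte genes summed to 20.1 to 125 CPM in the HBSS tumors, 4.83 to 51.9 CPM after cyto-IL-15, 52.0 to 111 CPM after ADU-S100 and 28.2 to 154 CPM after the combination. The brown adipocyte genes Ucp1 and Cidea were at or under 0.288 CPM in every tumor. The 4 nerve and Schwann cell genes summed to 89.1 to 93.9 CPM in the HBSS tumors and 55.7 to 155 CPM in the treated tumors. None of the tested skin, adipocyte, nerve or epithelial genes was called in any comparison with HBSS. After cyto-IL-15, ADU-S100 and the combination, only 3, 2 and 1 of the 7 skin genes could be tested. Of the 7 epithelial genes 5, 4 and 5 could, and the 6 adipocyte and 4 nerve genes all could. After cyto-IL-15 and the combination edgeR called 0% of all genes higher, so the absence of calls there says little about these lists. The part of these tissues, and of the amount of tissue removed with each tumor, in the muscle levels was not tested.

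In the 8 treated tumors other than 13, the makeup of the muscle RNA could be compared, as the share of each gene in the summed CPM of the 33 genes without Eno3 and Ttn. Some shares were nearly fixed: Pygm varied 1.41-fold between the lowest and the highest tumor, Acta1 also 1.41-fold (19.5% to 27.6%), Tnni2 1.58-fold, Tnnt3 1.66-fold and Myl1 1.68-fold. Others varied more, among them genes that differ between fiber types, as for Myh2 (33.6-fold, lowest in 22LR), Myh4 (14.96-fold, lowest in 20LL), Actn3 (12.9-fold, from 0.463% in 20LL to 6.00% in 22LR) and Mb (4.89-fold, from 0.990% in 22LR to 4.84% in 20LL). Tumor 22LR thus combined the highest share of Actn3 with the lowest of Myh2, Mb, Actn2 and Ckmt2, and 20LL the reverse for Actn3, Mb, Myh2 and Actn2, although the first was given ADU-S100 and the second cyto-IL-15. The slow genes Myh7, Tnnc1, Tnni1 and Tnnt1 had their highest shares in 20L, the treated tumor other than 13 with the lowest sum.

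The counts of neighbors and relatives limit a few of these values. Adult fast myosin transcripts share sequence: 10.6% of the 50-base windows of the Myh4 transcript also occur in Myh1 and 19.7% of those of Myh1 in Myh2, while Myh7 shares 0.162% with Myh1 and the troponin, actin, creatine kinase and enolase pairs share none. Of the 35 members 19 overlap another annotated gene, and in 7 the other gene was above 1 CPM in some tumor. The largest of these besides Nisch were Ube2c at Tnnc2 (40.9 to 121 CPM) and Rabep2 at Atp2a1 (23.7 to 33.1 CPM), both on the opposite strand. Tnnc2 had at most 1 count in each HBSS tumor, in all of which Ube2c was at 40.9 CPM or more.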

How the data were processed

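RNA was extracted with the RNeasy kit and sequenced from NEBNext Ultra II libraries. The authors deposited 1 file of read counts per gene and tumor, with gene symbols and coordinates. The submitters' processing notes name bcl2fastq 2.20, Trimmomatic 0.36, STAR 2.5.2b, Subread 1.5.2 with featureCounts, DESeq2 and the builds GRCm38 and mm10. The strand setting, the treatment of multimapping reads and the annotation release are not given in the sources used here.

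Counts were read as deposited and given as CPM of the library total, per kb of transcript where genes are compared with each other. Tests used edgeR 4.0.16 in R 4.3.3 (quasi-likelihood, TMM scaling, genes kept at a minimum count of 10 and a minimum total of 15) on the 6 tumors of each pairwise comparison and on 12 for the interaction, with a threshold of 0.05 on the adjusted p and 1 on the absolute log2 fold change. The steps were tested on simulated data. DESeq2 1.42.0, a fit of all 12 tumors, no filter, another scaling, each tumor left out and, chosen after seeing the data, fits without tumors 13 and 28LL were the alternatives. Replicates were compared for duplicate libraries, and none was found. The members and gene lists were chosen with earlier results of these data known. The genes given with fold changes in every comparison were Acta1, Myh4, Myh7, Ckm, Tnnt1 and Tnnt3, plus the members that passed the test. Other genes were chosen after their values were seen. Promoter sequences are from RefSeq (GRCm38.p6).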

Additional observations from a re-analysis of the deposited data

How the results depend on the processing

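The number of members called depended on the test. DESeq2 called 17 after cyto-IL-15 (0.474% of all genes called higher), 32 after ADU-S100 (3.85%) and 32 after the combination (4.39%). In the combination against cyto-IL-15 it called 1 (0.52%). A fit of all 12 tumors called 0 after ADU-S100, and no filter on low counts left 6. Fits of 10 tumors without 13 and 28LL, chosen after seeing the data, called 7 after ADU-S100 and 1 after the combination. Leaving out 1 tumor gave 0 to 20 calls after cyto-IL-15, 0 to 26 after ADU-S100 and 0 to 2 after the combination, and moved the members above every HBSS tumor after cyto-IL-15 between 7 and 23 on TMM-scaled CPM (6 on CPM of the library total). The cause of these changes, the smaller number of tumors included, was not tested.

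No log2 fold change of a gene called in a comparison changed sign. Among genes that were not called, leaving out 1 tumor gave ranges of -0.37 to 1.64 for Myh7 and -0.15 to 0.71 for Tnnt1 after cyto-IL-15, and -0.34 to 0.89 for Myh7 after the combination. Such ranges were -0.52 to 4.77 for Myh4 and -0.076 to 2.43 for Ckm in ADU-S100 against cyto-IL-15, and -1.17 to 6.20 for Myh4 and -1.51 to 0.74 for Myh7 in the combination against cyto-IL-15. In the combination against ADU-S100 they were -0.83 to 2.43 for Acta1, -1.25 to 1.98 for Myh4, -0.98 to 2.17 for Ckm and -1.17 to 2.48 for Tnnt3, and for the Myh7 interaction -0.24 to 1.99. Without 13 and 28LL in a fit of 10 tumors, Myh4 was at -0.52 in ADU-S100 against cyto-IL-15, Myh4, Ckm and Tnnt3 at -1.76, -0.37 and -0.22 in the combination against cyto-IL-15 (-1.75, -0.36 and -0.22 with the tumors of that comparison alone), and Acta1, Myh4, Ckm and Tnnt3 at -0.82, -1.24, -0.97 and -1.16 in the combination against ADU-S100. The Tnnt1 interaction was -0.14 without 13 and 28LL. The signs of these differences between treatments thus changed without those tumors.

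The median sum of the HBSS group was 22.7 CPM without Eno3 and Ttn, and its median log2 fast to slow ratio was 1.94 with 0.1 added in place of 0.5 and 1.22 for matched paralog pairs alone. Over all alternatives, 486 fold changes of named genes kept their direction and side of the threshold, 84 lost and 15 gained the threshold, and 27 changed sign. No paired analysis was possible because replicates are numbered only in accession order. Depth limited Myh7 and Ckmt2 in the treated tumors, at 2 to 7 counts in several of them, and HBSS levels of Tnnc2, Myot, Mb, Pvalb and Ckmt2 rested on 4 counts or fewer over 3 tumors.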

Other observations

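Some genes of muscle and neighboring tissues had levels of their own. Myom2, an M-line protein of fast fibers, was at 34.9 CPM in HBSS tumor 22LL and 0.0816 and 0.0923 CPM in HBSS tumors 19 and 22R, while the 33 members without Eno3 and Ttn summed to 22.4 to 23.2 CPM in all of them. Tumor 13, with the least RNA of these 33 members, still held 8.49 CPM of Myom2 and 32.8 CPM of Jph2, a protein that ties the cell membrane to the sarcoplasmic reticulum, but only 0.0294 CPM of Myom3, which was at 9.57 to 30.8 CPM in the other 11 tumors. The keratin genes Krt14 and Krt8 were highest in these same tumors, at 128 and 147 CPM in 22LL and 45.9 and 76.3 CPM in 13. Nppb, a natriuretic peptide gene, was at 3.68 CPM in tumor 13 and at most 0.615 CPM elsewhere. These genes were singled out after their values were seen. By edgeR in cyto-IL-15 against HBSS, Myom2, Jph2, Myom3, Krt14 and Krt8 were not called (adjusted p of 0.899 or more). Differences of these genes between single tumors were not tested.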
